A study of Mus musculus with 22 samples.

Results

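The 10 genes described here make fatty acids in the liver cell or switch that synthesis on: the regulators Srebf1, Mlxipl and Thrsp, and the enzymes Acly, Acaca, Acacb, Fasn, Scd1, Elovl6 and Me1. Open chromatin was measured near them by ATAC-seq: a transposase enters DNA that nucleosomes do not cover, and the fragments it makes are sequenced. Members were all peaks whose deposited gene name is one of the 10 genes and whose centre lies within 50 kb of that gene's transcription start. This gave 87 of 68827 peaks, each 200 bases wide on mm10, at 9 of the 10 genes, out of 15686 genes with such a peak. Elovl6 had no peak under its own name and is described at the end by its transcript. A gene sum is the count over all of a gene's peaks, given as CPM, the count scaled to a total of 1000000 over all gene sums. It measures open chromatin and not expression, and the nearest gene is assigned by distance alone.

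Nuclei were pulled down from the livers of male mice of the HEP-INTACT line, whose hepatocyte nuclei carry a tag. The promoter that drives the tag is not given in the sources used here, nor is the age of the mice, and every group carries the tag. The advanced and mild FPC groups were on an FPC diet for 20 weeks. The advanced and mild CDAHFD groups were on a CDAHFD, a high-fat diet deficient in choline, for 7 weeks. Each arm has its own controls, kept on low fat diet for 20 or 7 weeks. Liver histology set the stage of a diseased mouse: mild and advanced livers both had steatosis and inflammation, and only advanced livers had marked fibrosis. Each arm had 3 advanced, 4 mild and 4 control libraries, 22 in all, each from a different mouse. Diet and time on diet differ together between the arms and cannot be told apart.

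Fatty acid synthesis turns surplus carbohydrate into fat. Acly splits citrate into acetyl-CoA, Acaca and Acacb carboxylate it to malonyl-CoA, Fasn builds palmitate from these with NADPH that Me1 helps to supply, Elovl6 lengthens the chain and Scd1 puts in a double bond. In liver, insulin acts on this set through SREBP-1c, a product of Srebf1, glucose acts through ChREBP, the product of Mlxipl, and polyunsaturated fat in the diet is known to hold the set down.

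The start regions on which several results below turn are shown first, each as the 250 bases before to 50 bases after a transcription start, written 5′ to 3′ on the gene's strand, from RefSeq (GRCm38.p6, the assembly named mm10). Of the 10 genes, 9 had such a sequence in the table used, with 13 windows in all. Capitals mark matches, on either strand, to 8 motifs: TCACNCCAC (SREBP), CACGTG (E-box), CCAAT (NF-Y), GGGCGG (SP1), TGANTCA (AP-1), GGAATG (TEAD), and the nuclear receptor half-site AGGNCA repeated in tandem with a spacer of 4 bases (DR4) or 1 base (DR1). The Thrsp and Fasn starts are shown because their peaks went different ways, the pair of Mlxipl starts because one lost open chromatin and the other did not, and the Srebf1 start because it holds that gene's highest peak.
Thrsp, chr7:97417501-97417800, minus strand: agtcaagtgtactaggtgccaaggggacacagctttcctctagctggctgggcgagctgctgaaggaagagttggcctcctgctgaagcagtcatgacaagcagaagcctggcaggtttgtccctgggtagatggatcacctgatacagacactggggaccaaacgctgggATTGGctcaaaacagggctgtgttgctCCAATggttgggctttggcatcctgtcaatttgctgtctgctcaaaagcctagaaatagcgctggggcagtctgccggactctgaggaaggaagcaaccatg
Fasn, chr11:120824498-120824797, minus strand: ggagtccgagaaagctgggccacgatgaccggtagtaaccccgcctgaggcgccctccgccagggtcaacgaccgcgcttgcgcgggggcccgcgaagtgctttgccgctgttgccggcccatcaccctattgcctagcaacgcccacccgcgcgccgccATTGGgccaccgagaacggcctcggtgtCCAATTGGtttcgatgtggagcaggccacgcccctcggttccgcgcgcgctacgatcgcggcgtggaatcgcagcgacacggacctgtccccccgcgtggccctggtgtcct
Mlxipl upstream start, chr5:135089640-135089939, plus strand: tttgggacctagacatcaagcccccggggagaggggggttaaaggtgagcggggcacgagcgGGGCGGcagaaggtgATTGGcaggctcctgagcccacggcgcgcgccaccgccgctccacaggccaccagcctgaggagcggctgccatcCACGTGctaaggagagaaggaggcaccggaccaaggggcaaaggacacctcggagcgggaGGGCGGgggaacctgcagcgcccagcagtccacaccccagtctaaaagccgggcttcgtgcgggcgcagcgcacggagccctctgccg
Mlxipl downstream start, chr5:135106641-135106940, plus strand: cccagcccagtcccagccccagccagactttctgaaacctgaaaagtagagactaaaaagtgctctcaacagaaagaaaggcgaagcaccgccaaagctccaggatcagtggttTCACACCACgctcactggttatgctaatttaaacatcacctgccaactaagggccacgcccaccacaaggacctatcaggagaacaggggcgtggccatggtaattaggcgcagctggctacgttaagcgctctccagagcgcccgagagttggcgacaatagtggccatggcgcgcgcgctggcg
Srebf1 start inside the longer transcript, chr11:60210422-60210721, minus strand: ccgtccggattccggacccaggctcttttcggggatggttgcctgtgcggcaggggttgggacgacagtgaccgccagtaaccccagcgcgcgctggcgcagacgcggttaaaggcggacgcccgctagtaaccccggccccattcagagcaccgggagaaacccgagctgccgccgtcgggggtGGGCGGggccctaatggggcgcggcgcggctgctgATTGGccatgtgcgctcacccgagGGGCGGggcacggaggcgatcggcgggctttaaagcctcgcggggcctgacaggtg

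The Thrsp window held a pair of NF-Y matches, 79 and 52 bases before the start. The Fasn window held 3, at 90, 62 and 59 bases before the start, of which the last 2 overlap. The NF-Y motif occurs in 37.4% of the 32851 windows of the same length in the table. The upstream Mlxipl window held an E-box 98 bases before the start, a motif found in 7.15% of all windows, with an NF-Y and a pair of SP1 matches. The downstream Mlxipl window held an SREBP match 136 bases before the start, a motif found in 1.24% of all windows. The Srebf1 window held SP1 matches (35.7% of all windows) at 65 and 6 bases before the start and an NF-Y match at 30. The AP-1 (7.81%) and TEAD (14.7%) motifs matched in Me1 windows only among the members, and neither DR4 (0.253%) nor DR1 (0.381%) matched in any of the 13. A match is a string of letters and not a site shown to be bound, and no match says only that these letters are absent from the window.

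The counts of called genes differed between the arms, and the difference between diets is tested directly further below. In advanced FPC livers 3 of 9 gene sums were lower than in controls (Thrsp, Me1 and Acly), 1 was higher (Scd1) and 5 did not pass the test, edgeR's quasi-likelihood test at a Benjamini-Hochberg adjusted p under 0.05 over all genes. In advanced CDAHFD livers all 9 were lower. The median log2 change over the 9 genes was -0.12 in FPC and -0.58 in CDAHFD livers, beside 0.03 and 0.01 over all 15686 genes. Changes were common in these livers: of all genes, 29.0% were called lower and 32.4% higher in advanced FPC, and 28.0% lower and 30.2% higher in advanced CDAHFD. The 3 of 9 lower in FPC was thus close to the share of all genes, and the 9 of 9 in CDAHFD was above it.

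In mild livers, which lacked marked fibrosis, 7 of 9 gene sums were lower in CDAHFD and none was higher, against 21.0% lower and 23.9% higher of all genes. Acacb and Mlxipl were the exceptions, at log2 changes of -0.07 ± 0.08 (SE, adjusted p = 0.497) and -0.06 ± 0.06 (adjusted p = 0.395). In mild FPC livers 2 were higher, Scd1 and Acacb, and none was lower, against 21.3% higher and 18.9% lower of all genes. The median log2 change over the 9 genes was 0.06 in mild FPC and -0.54 in mild CDAHFD livers, beside 0.02 and 0.01 over all genes.

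**Figure D1:**
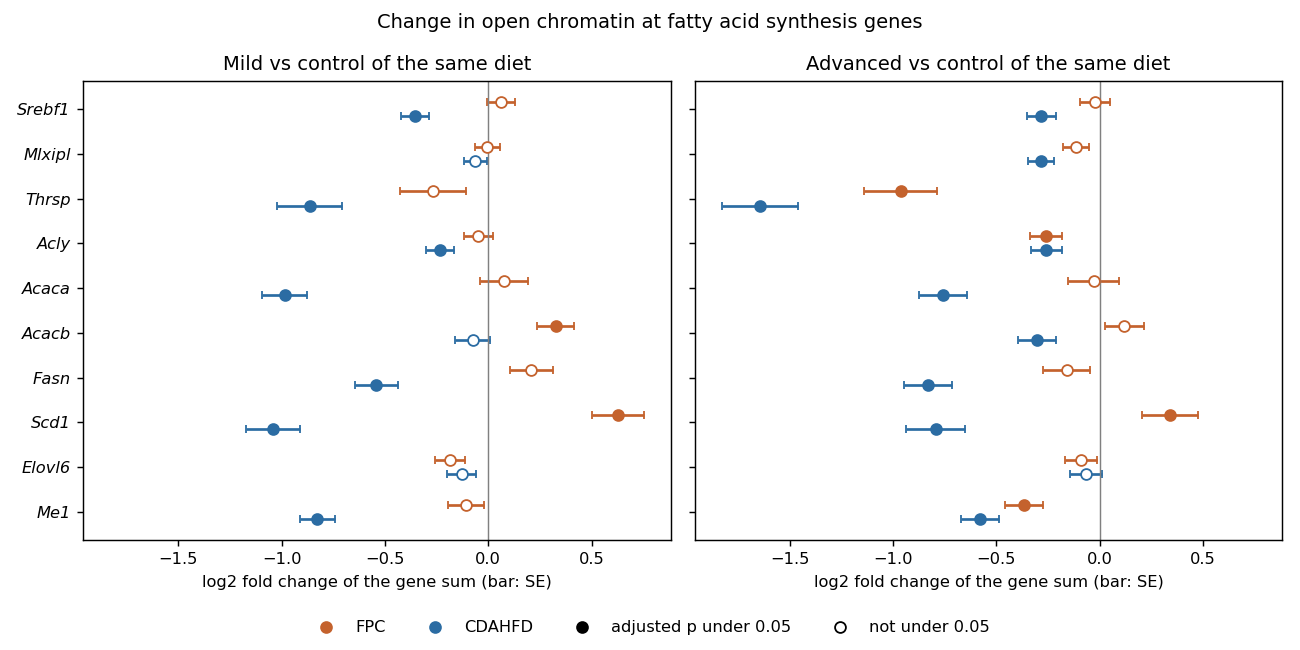
The log2 fold change of each gene sum against the control of the same diet, in mild and advanced livers, with FPC drawn above CDAHFD. Bars are SE from the fit to 22 libraries, and filled points have an adjusted p under 0.05. All 9 genes under their own name lie left of 0 in advanced CDAHFD livers, and Scd1 lies right of 0 in FPC livers of both stages.

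The difference between the diets was tested directly, as the change in FPC minus the change in CDAHFD. For the advanced change it was called for 3 of 9 genes, all higher in FPC: Scd1 (1.13 ± 0.20 on the log2 scale, SE, adjusted p = 0.00167), Acaca (0.73 ± 0.17, adjusted p = 0.0142) and Fasn (0.67 ± 0.16, adjusted p = 0.0183). Only 1.92% of all genes were called higher and 2.95% lower in that test, and no member was called lower. For the mild change it was called for 5 of 9 genes, again all higher in FPC: Scd1 (1.67 ± 0.18, adjusted p = 5.94e-06), Acaca (1.06 ± 0.16, adjusted p = 0.00027), Fasn (0.75 ± 0.15, adjusted p = 0.00399), Me1 (0.72 ± 0.12, adjusted p = 0.000951) and Srebf1 (0.41 ± 0.09, adjusted p = 0.0113). Of all genes 2.49% were called higher and 2.79% lower there. The stages share their controls, so they do not repeat each other independently.

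Some of these calls rest on single libraries or on the window. The Fasn difference in advanced livers was 0.53 without advanced FPC replicate 1 (adjusted p = 0.0558) and 0.59 without advanced CDAHFD replicate 1 (adjusted p = 0.0596). The Acaca difference in advanced livers was not called with peaks within 10 kb alone (adjusted p = 0.0583). Of the mild differences, that of Fasn was 0.36 with peaks within 1 kb (adjusted p = 0.0692), and that of Srebf1 was 0.21 within 1 kb (adjusted p = 0.215) and 0.27 within 10 kb (adjusted p = 0.0783). The Scd1 difference was called under every alternative tried, in both stages.

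Advanced livers were also set against mild livers of the same diet. In FPC livers 4 of 9 were lower in advanced than in mild livers, Thrsp (log2 change -0.70 ± 0.18, SE, adjusted p = 0.00371), Fasn (-0.37 ± 0.11, adjusted p = 0.0144), Me1 (-0.26 ± 0.09, adjusted p = 0.032) and Acly (-0.21 ± 0.07, adjusted p = 0.0326), and none was higher, against 15.9% lower and 15.6% higher of all genes. That count was 0 without advanced FPC replicate 2, and 2 without advanced FPC replicate 3, mild FPC replicate 3 or mild FPC replicate 4. In CDAHFD livers 2 of 9 were lower, Thrsp (-0.78 ± 0.19, adjusted p = 0.00509) and Mlxipl (-0.22 ± 0.06, adjusted p = 0.0144), and none was higher, against 7.76% lower and 9.63% higher of all genes. Between the controls, 20-week against 7-week, 1 of 9 was lower (Acaca, -0.44 ± 0.11, adjusted p = 0.0189) and none was higher, against 2.26% lower and 3.79% higher of all genes. The Acaca control difference was not called without 20-week control replicate 3 (-0.32, adjusted p = 0.105) or without 7-week control replicate 3 (-0.41, adjusted p = 0.0564).

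**Figure D2:**
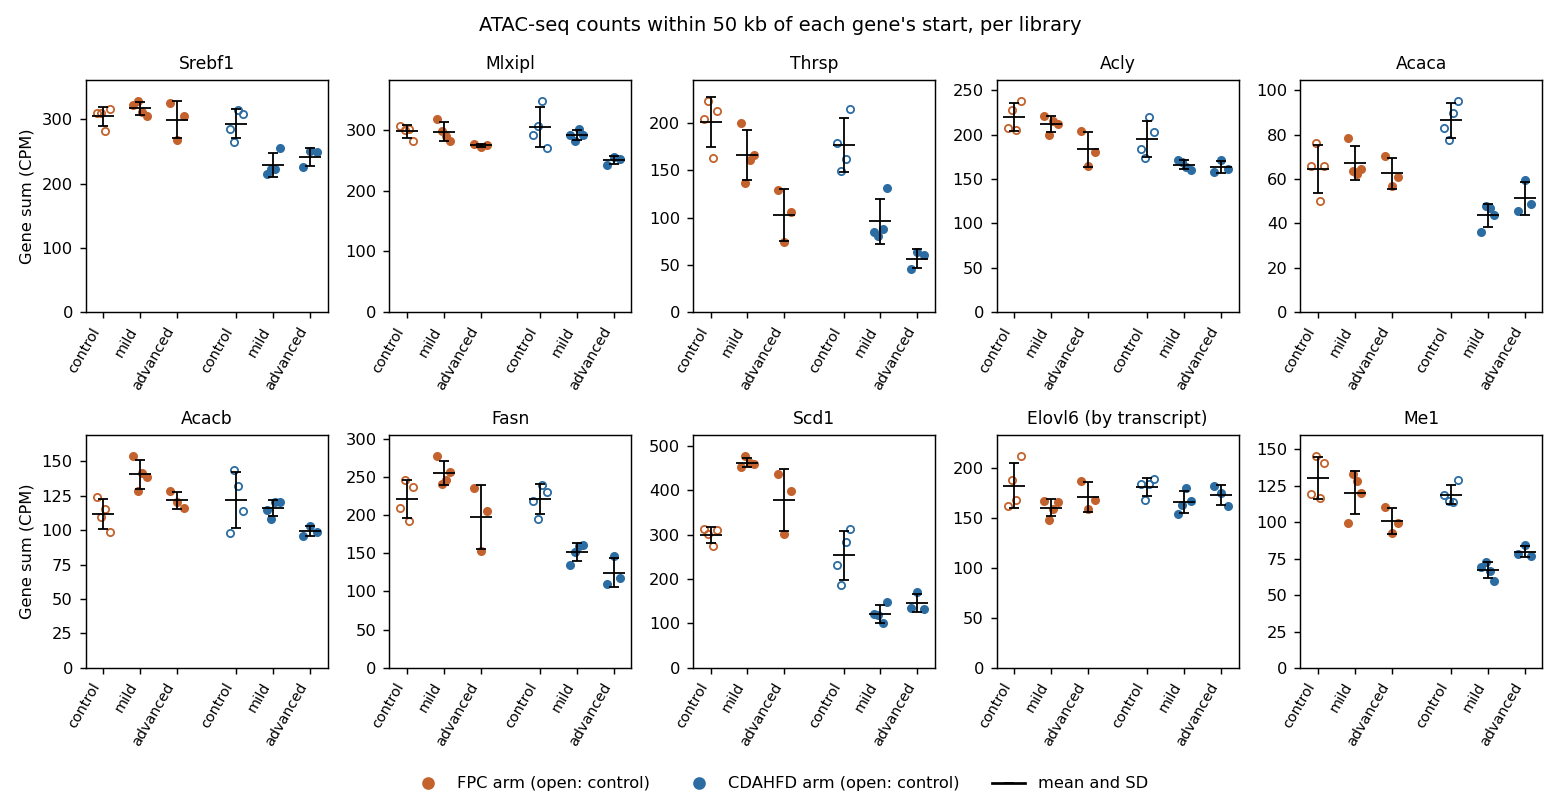
Gene sums in CPM for each library, with groups from control to advanced in the FPC arm and then the CDAHFD arm. Points are libraries, and black marks give the mean and SD. Scd1 stands at 452.5 CPM or more in the 4 mild FPC libraries and at 149.3 CPM or less in the 4 mild CDAHFD libraries, and the mean of Thrsp is lower at each stage in both arms.

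Srebf1, which encodes the SREBP-1 factors, had gene sums of 305 ± 15.3, 317 ± 10.4 and 299.9 ± 29.0 CPM in control, mild and advanced FPC livers, and 294 ± 22.9, 229 ± 18.4 and 242 ± 13.7 CPM in control, mild and advanced CDAHFD livers (SD, n = 4, 4 and 3 in each arm). The 3 FPC groups had similar means, and both CDAHFD disease groups lay lower. The log2 change was -0.02 ± 0.07 in advanced FPC (SE, adjusted p = 0.804), -0.28 ± 0.07 in advanced CDAHFD (adjusted p = 0.00166) and -0.35 ± 0.07 in mild CDAHFD (adjusted p = 0.000129). With peaks within 1 kb alone neither CDAHFD call held, at -0.12 in advanced (adjusted p = 0.124) and -0.09 in mild livers (adjusted p = 0.284). Of its 17 peaks, 6 were lower and 4 higher in advanced FPC livers, near the 28.0% lower and 27.6% higher of all peaks, and 8 were lower and 3 higher in advanced CDAHFD livers, against 28.8% lower and 26.7% higher of all peaks.

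The highest Srebf1 peak, chr11:60210435-60210635, lies in the window shown above, 64 bases upstream of a start inside the longer transcript. It had 66.1, 55.0 and 62.7 CPM in advanced FPC livers, against 45.1, 39.5, 44.2 and 46.0 CPM in FPC controls (for this and every single peak below, CPM is scaled to the total over all peaks). These groups did not overlap, and the log2 change was 0.48 ± 0.09 (SE, adjusted p = 4.27e-05). In CDAHFD livers the same peak had 41.5, 51.2 and 46.9 CPM in advanced livers, against 39.7, 44.9, 47.9 and 49.4 CPM in controls, and the change was 0.02 ± 0.08 (adjusted p = 0.821). The difference between diets (0.46 ± 0.12, adjusted p = 0.0495) sat at the threshold, and 19 of 30 alternatives lost it. A peak 2296 bases before the start of the longer transcript was lower in both diets, at -0.86 ± 0.17 in advanced FPC (adjusted p = 9.16e-05) and -1.41 ± 0.17 in advanced CDAHFD (adjusted p = 6.05e-08). The peak 7453 bases before that start, which lies in the 3′ UTR of the neighbour Tom1l2, was higher in advanced FPC (0.84 ± 0.14, adjusted p = 2.08e-05) and had a change of 0.22 ± 0.14 in advanced CDAHFD (adjusted p = 0.186).

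Mlxipl, the gene of the glucose-responsive factor ChREBP, had gene sums of 297 ± 10.8, 296 ± 15.6 and 274 ± 2.39 CPM in control, mild and advanced FPC livers, and 304 ± 32.8, 291 ± 7.51 and 249.6 ± 6.54 CPM in control, mild and advanced CDAHFD livers (SD, n = 4, 4 and 3). Against its control only the advanced CDAHFD group was called (-0.29 ± 0.06, SE, adjusted p = 0.000407), and the advanced FPC change was -0.12 ± 0.06 (adjusted p = 0.119), or -0.23 with peaks within 10 kb (adjusted p = 0.00222). Within 1 kb the mild CDAHFD change was -0.42 and called. Single peaks changed more. The gene has a pair of starts 17001 bases apart on mm10, and the upstream one is known in mouse to give the shorter, more active ChREBP-beta.

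At the upstream start the peak chr5:135089740-135089940, within the first Mlxipl window shown, had 12.4, 12.0 and 9.96 CPM in advanced CDAHFD livers, against 31.2, 31.0, 36.0 and 26.5 CPM in controls. Mild CDAHFD livers lay between, at 16.6, 18.2, 14.7 and 15.7 CPM, with no overlap among the 3 groups. The log2 change of this peak was -1.44 ± 0.11 in advanced (SE, adjusted p = 2.09e-11) and -0.94 ± 0.09 in mild CDAHFD livers (adjusted p = 1.13e-08). In FPC livers the peak had 23.4, 22.2 and 24.0 CPM in advanced livers, against 23.7, 24.9, 24.9 and 25.3 CPM in controls, and the change was -0.09 ± 0.11 (adjusted p = 0.487). Between diets the difference was 1.35 ± 0.15 (adjusted p = 2.4e-05), and all 30 alternatives called it. The CDAHFD controls all lay above the FPC controls at this peak. The difference between diets includes that gap between the baselines, which was not tested for single peaks. The sum of the Mlxipl peaks within 1 kb of a start alone was also called different between diets (0.64, adjusted p = 7.93e-05), unlike the sum over 50 kb.

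At the downstream start the peak chr5:135106742-135106942 had 27.6, 31.9 and 33.9 CPM in advanced CDAHFD livers and 28.0, 33.1, 35.6 and 30.9 CPM in controls, which overlapped. The log2 change there was -0.05 ± 0.09 (SE, adjusted p = 0.654). In FPC livers this peak had 37.1, 39.2 and 35.8 CPM in advanced livers, against 28.3, 31.0, 30.9 and 31.9 CPM in controls, with no overlap (0.29 ± 0.09, adjusted p = 0.00834). The difference between the upstream and downstream peaks was not itself tested. The highest Mlxipl peak, 5677 bases before the downstream start in an intron, was lower in both diets, at -0.29 ± 0.09 in advanced FPC and -0.30 ± 0.08 in advanced CDAHFD livers (adjusted p = 0.00908 and 0.00352).

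**Figure D3:**
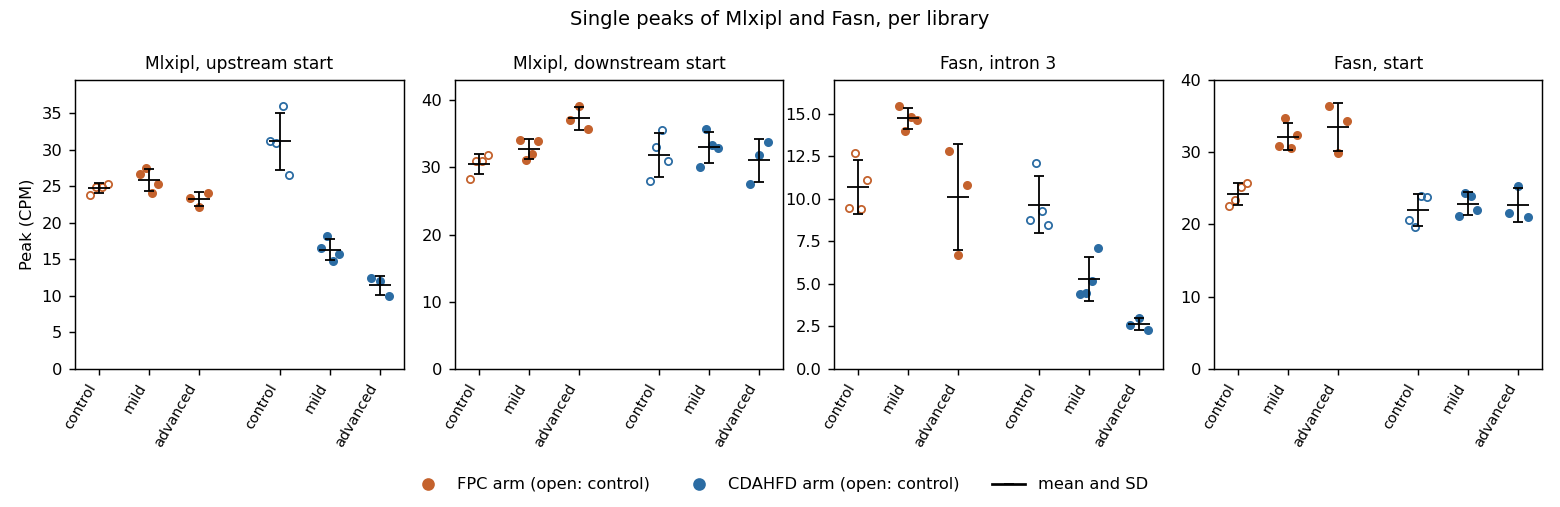
CPM of 4 single peaks in each library: the upstream and downstream starts of Mlxipl, and the third intron and the start of Fasn. Groups run from control to advanced in the FPC arm and then the CDAHFD arm, with mean and SD in black. In advanced CDAHFD livers the upstream Mlxipl start is at 12.4 CPM or less and the Fasn intron at 3.0 CPM or less, below all their controls, whereas the downstream Mlxipl start and the Fasn start overlap their controls.

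Thrsp, which encodes a small nuclear protein that promotes lipid synthesis and is induced by thyroid hormone, had the change of greatest size among the 9 gene sums in advanced livers of both diets. Its gene sum was 129, 74.2 and 105 CPM in advanced FPC livers, against 203, 223, 163 and 213 CPM in FPC controls. It was 45.5, 63.8 and 61.0 CPM in advanced CDAHFD livers, against 179, 149, 161 and 215 CPM in CDAHFD controls. Neither pair of groups overlapped, and the log2 changes were -0.96 ± 0.18 in FPC (SE, adjusted p = 5.73e-05) and -1.64 ± 0.18 in CDAHFD (adjusted p = 5.65e-08). The difference between diets was not called (0.68 ± 0.25, adjusted p = 0.115), which does not show that the diets act alike. Without advanced FPC replicate 2 that difference was 0.88 and called (adjusted p = 0.0452). In mild livers the change was -0.27 ± 0.16 in FPC (adjusted p = 0.185) and -0.86 ± 0.16 in CDAHFD (adjusted p = 0.000106). Advanced FPC replicate 2 had the lowest sum of its group for Thrsp and for every other member but Acacb.

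All 6 Thrsp peaks were lower in advanced CDAHFD livers and 5 of 6 in advanced FPC livers, against 28.8% and 28.0% of all peaks. The peak at the start, chr7:97417560-97417760, lies inside the Thrsp window shown above with both NF-Y matches. It had 34.7, 19.7 and 32.1 CPM in advanced FPC livers, against 56.7, 54.1, 50.4 and 58.2 CPM in controls. In CDAHFD it had 11.3, 15.0 and 12.8 CPM in advanced livers, against 41.8, 41.3, 38.7 and 61.5 CPM in controls. The groups were apart in both diets, with log2 changes of -0.93 ± 0.18 in FPC and -1.82 ± 0.19 in CDAHFD (SE, adjusted p = 7.36e-05 and 9e-09). The peak in the intron, 2246 bases after the start, had 0.641, 1.00 and 0 CPM in advanced CDAHFD livers, 11.5 counts in all, against 8.76, 5.09, 6.65 and 8.15 CPM in controls. At such counts the fitted change (-3.69 ± 0.47) is a rough size only.

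Acly supplies cytosolic acetyl-CoA. Its gene sum was 219.5 ± 15.9, 212 ± 8.94 and 183 ± 19.8 CPM in control, mild and advanced FPC livers, and 195 ± 20.2, 166 ± 5.19 and 163 ± 6.99 CPM in control, mild and advanced CDAHFD livers (SD, n = 4, 4 and 3). The log2 change was -0.26 ± 0.08 in advanced FPC and -0.26 ± 0.07 in advanced CDAHFD livers (SE, adjusted p = 0.00481 and 0.00476), and the difference between diets was 0.00 ± 0.11 (adjusted p = 0.993). Both calls were lost when only peaks within 10 kb were summed (-0.10 and -0.11, adjusted p = 0.207 and 0.162). The mild CDAHFD call of Acly was lost within 10 kb (-0.12, adjusted p = 0.138) and within 1 kb (-0.12, adjusted p = 0.157).

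The Acly peak with the largest change lies outside that window, 22810 bases into the gene in intron 11. It had 8.43, 4.84 and 5.09 CPM in advanced FPC livers, against 19.4, 21.7, 17.5 and 20.2 CPM in controls. It had 5.34, 7.68 and 5.26 CPM in advanced CDAHFD livers, against 18.9, 20.3, 21.4 and 23.8 CPM in controls. The groups were apart in both diets, at -1.69 ± 0.18 in FPC (SE, adjusted p = 1.92e-08) and -1.81 ± 0.17 in CDAHFD (adjusted p = 1.32e-09). Mean levels in mild livers, 13.2 ± 1.51 CPM in FPC and 11.6 ± 1.68 CPM in CDAHFD (SD, n = 4 each), lay between those of control and advanced livers. The Acly start peak, the gene's highest, was not called in either diet (0.13 ± 0.09, adjusted p = 0.219 in FPC, and 0.06 ± 0.08, adjusted p = 0.552 in CDAHFD).

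Acaca makes the malonyl-CoA used for synthesis. Its gene sum was 64.5 ± 10.6, 67.3 ± 7.47 and 62.6 ± 7.02 CPM in control, mild and advanced FPC livers, and 86.4 ± 7.69, 43.7 ± 5.25 and 51.4 ± 7.33 CPM in control, mild and advanced CDAHFD livers (SD, n = 4, 4 and 3). Its log2 change was -0.03 ± 0.12 in advanced FPC livers (SE, adjusted p = 0.853), -0.76 ± 0.12 in advanced CDAHFD livers (adjusted p = 5.61e-06) and -0.98 ± 0.11 in mild CDAHFD livers (adjusted p = 1.33e-07). The 7-week controls were themselves higher than the 20-week controls, as given above, and the difference between diets includes that gap between the baselines.

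The peak nearest to the Acaca start, 551 bases into the gene, had 3.21, 3.34 and 4.84 CPM in advanced CDAHFD livers, against 8.62, 7.18, 9.03 and 9.0 CPM in controls (-1.16 ± 0.20, SE, adjusted p = 2.15e-05), with no overlap. In FPC it had 4.38, 4.84 and 6.05 CPM in advanced livers, against 3.63, 5.30, 5.38 and 4.05 CPM in controls (0.14 ± 0.22, adjusted p = 0.627), which overlapped. A peak 15650 bases into the gene was lower in both diets, at -1.12 ± 0.23 in advanced FPC and -1.69 ± 0.21 in advanced CDAHFD livers (adjusted p = 0.00021 and 1.27e-07). The highest Acaca peak, 2745 bases into the gene, was lower in advanced CDAHFD livers (-0.58 ± 0.18, adjusted p = 0.00655) and had a change of 0.10 ± 0.19 in advanced FPC livers (adjusted p = 0.665).

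Acacb makes malonyl-CoA at the mitochondrion, where it restrains fatty acid oxidation. Its gene sum was 112 ± 10.7, 140.5 ± 10.4 and 122 ± 6.11 CPM in control, mild and advanced FPC livers, and 122 ± 20.1, 116 ± 5.80 and 99.1 ± 3.68 CPM in control, mild and advanced CDAHFD livers (SD, n = 4, 4 and 3). It was higher in mild FPC livers (0.33 ± 0.09, SE, adjusted p = 0.0056) and lower in advanced CDAHFD livers (-0.30 ± 0.09, adjusted p = 0.00728). The mild FPC call was lost with peaks within 10 kb (0.29, adjusted p = 0.241). The difference between diets lay near the threshold in both stages (0.42 ± 0.13 for advanced, adjusted p = 0.0645, and 0.40 ± 0.12 for mild, adjusted p = 0.0547). It was called under 4 alternatives for advanced and 9 for mild livers, DESeq2 (0.0447 for mild) and limma-voom (0.0426 for advanced, 0.0463 for mild, adjusted p) among them. Its highest peak, 10288 bases into the gene, was higher in advanced livers of FPC (0.58 ± 0.11, adjusted p = 6.76e-05) and, at the threshold, of CDAHFD (0.23 ± 0.10, adjusted p = 0.0458). A peak 16888 bases into the gene had 3.42, 4.01 and 3.70 CPM in advanced CDAHFD livers, against 9.60, 16.6, 9.74 and 5.09 CPM in controls (-1.48 ± 0.25, adjusted p = 1.16e-05).

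Fasn, the synthase that builds palmitate, had gene sums of 110.4, 146 and 118 CPM in advanced CDAHFD livers, against 218, 195, 239.8 and 230.0 CPM in controls. In FPC it had 236, 153 and 205 CPM in advanced livers, against 209.7, 246, 192 and 237 CPM in controls. The CDAHFD groups did not overlap and the FPC groups did. The log2 change was 0.21 ± 0.11 in mild FPC (SE, adjusted p = 0.117), -0.16 ± 0.11 in advanced FPC (adjusted p = 0.233), -0.54 ± 0.10 in mild CDAHFD (adjusted p = 0.000187) and -0.83 ± 0.12 in advanced CDAHFD livers (adjusted p = 1.42e-06). The mild CDAHFD call was lost with peaks within 1 kb (-0.13, adjusted p = 0.177). Without advanced FPC replicate 1 the advanced FPC change was -0.30 and called lower (adjusted p = 0.0322), and the mild FPC change was called higher under 4 alternatives.

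The Fasn start and the sites around it did not follow one course. The peak at the start, chr11:120824557-120824757, which lies in the window shown, had 21.6, 25.4 and 21.1 CPM in advanced CDAHFD livers, against 20.6, 19.6, 24.0 and 23.8 CPM in controls, which overlapped (0.03 ± 0.10, SE, adjusted p = 0.826). In FPC it was higher, with 36.4, 29.9 and 34.4 CPM in advanced livers, against 22.5, 23.3, 25.2 and 25.8 CPM in controls (0.46 ± 0.10, adjusted p = 0.000323). In the third intron, 2760 bases after the start, the peak chr11:120821687-120821887 had 2.56, 3.0 and 2.28 CPM in advanced CDAHFD livers, against 8.76, 12.1, 9.27 and 8.49 CPM in controls, with no overlap. The log2 change there was -0.08 ± 0.20 in advanced FPC (adjusted p = 0.757) and -1.89 ± 0.23 in advanced CDAHFD livers (adjusted p = 1.19e-07), and the difference between diets was 1.81 ± 0.31 (adjusted p = 0.00277). Of the 9 Fasn peaks, 3 were lower and 1 higher in advanced FPC livers, against 28.0% lower and 27.6% higher of all peaks. The count lower was near that share, and the count higher was below it. In advanced CDAHFD livers 7 were lower and none higher, against 28.8% lower and 26.7% higher of all peaks. The largest loss, a peak chosen here after its values were seen, was 7666 bases before the start in an intron of the neighbour Ccdc57, with 0.534, 1.67 and 1.14 CPM in advanced CDAHFD livers, against 10.2, 6.43, 8.08 and 13.9 CPM in controls (-3.18 ± 0.39, adjusted p = 1.43e-07). At levels this low the fitted change is a rough size only.

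Scd1, which makes oleate and palmitoleate and is known to respond strongly to diet in liver, had the largest difference between diets among the 9 gene sums. Its gene sum was 436, 301 and 399 CPM in advanced FPC livers, against 313, 300.3, 274 and 309.8 CPM in controls. It was 135, 170.2 and 133 CPM in advanced CDAHFD livers, against 231, 186, 283 and 312 CPM in controls. The CDAHFD groups were apart, and the FPC groups overlapped. Mild libraries stood at 453, 476, 461 and 459 CPM in FPC and 120.3, 118, 101 and 149 CPM in CDAHFD livers, apart from the controls of their own diet. The log2 change of the sum was 0.63 ± 0.13 in mild FPC (SE, adjusted p = 0.000474), 0.34 ± 0.14 in advanced FPC (adjusted p = 0.033), -1.04 ± 0.13 in mild CDAHFD (adjusted p = 8.15e-07) and -0.79 ± 0.14 in advanced CDAHFD livers (adjusted p = 3.72e-05).

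The Scd1 call in advanced FPC livers did not hold under many alternatives. It was lost with DESeq2 (0.32, adjusted p = 0.08), with peaks within 1 kb (0.05, adjusted p = 0.815) or 10 kb (0.16, adjusted p = 0.424), and without any 1 of 7 libraries. These are control replicates 2, 3 and 4 and advanced replicates 1 and 3 of FPC, and mild replicates 1 and 2 of CDAHFD. The lowest value was 0.23, without advanced FPC replicate 1 (adjusted p = 0.194).

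Of the 16 Scd1 peaks, 8 were higher and none lower in advanced FPC livers, and 13 were lower and none higher in advanced CDAHFD livers. Of all peaks, 27.6% were higher and 28.0% lower in advanced FPC, and 26.7% higher and 28.8% lower in advanced CDAHFD livers. In mild livers 11 Scd1 peaks were higher on FPC and 12 lower on CDAHFD, against 15.1% higher and 20.0% lower of all peaks. Between diets the difference was called for 10 of the 16 in advanced and 14 in mild livers, always higher in FPC. Of all peaks, 0.690% were called higher in that test in advanced and 1.84% in mild livers. Some of the Scd1 peaks lie side by side, so they are not independent of each other.

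**Figure D4:**
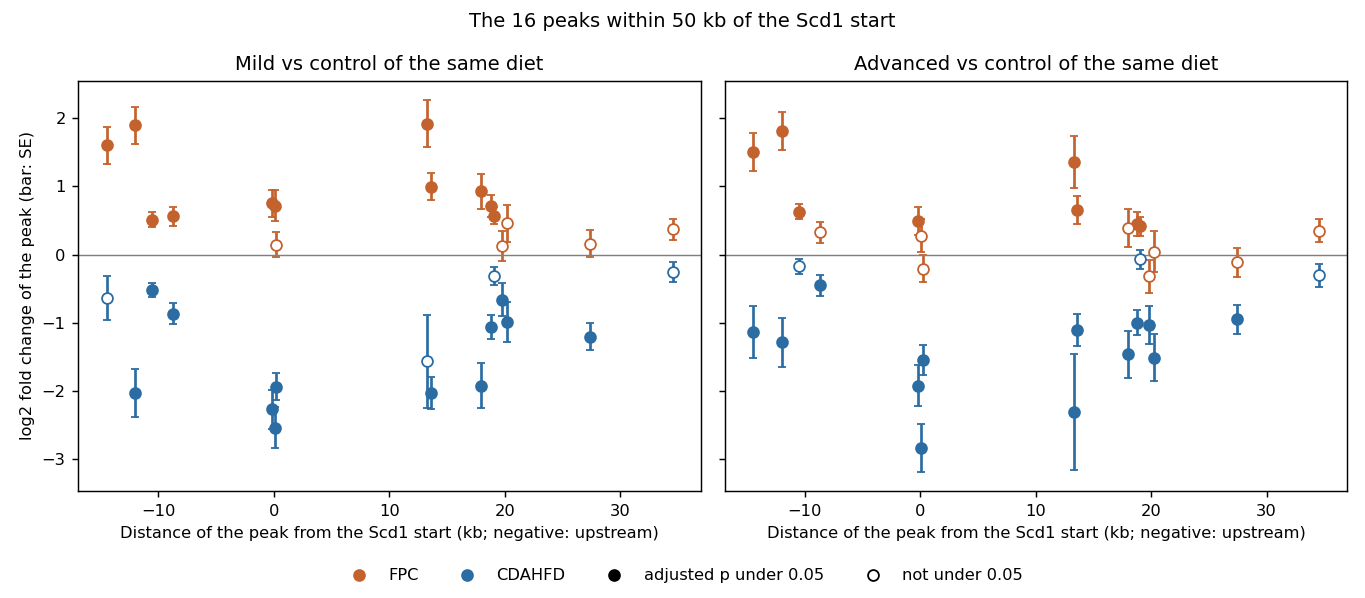
The log2 fold change of each of the 16 Scd1 peaks against the control of the same diet, by distance from the Scd1 start in kb, for mild and advanced livers. Bars are SE, and filled points have an adjusted p under 0.05. CDAHFD points lie below 0 at every peak in both panels, and FPC points lie above 0 at every peak in mild livers.

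The Scd1 peak nearest to the start, chr19:44407529-44407729, is centred 80 bases after it. It had 1.92, 2.67 and 2.56 CPM in advanced CDAHFD livers, against 12.4, 10.9, 15.9 and 28.9 CPM in controls, with no overlap and a log2 change of -2.84 ± 0.35 (SE, adjusted p = 1.35e-07). In FPC it had 38.3, 19.7 and 27.7 CPM in advanced livers, against 28.8, 20.2, 21.3 and 23.3 CPM in controls, which overlapped (0.28 ± 0.24, adjusted p = 0.338). The difference between diets was 3.12 ± 0.43 (adjusted p = 0.000306).

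An intergenic peak, chr19:44419600-44419800, 11991 bases before the Scd1 start, moved in opposite directions. It had 15.7, 9.83 and 18.6 CPM in advanced FPC livers, against 5.33, 3.98, 4.03 and 3.29 CPM in controls (1.81 ± 0.28, SE, adjusted p = 6.36e-06). It had 1.60, 2.67 and 0.854 CPM in advanced CDAHFD livers, against 3.67, 2.99, 4.04 and 5.77 CPM in controls (-1.28 ± 0.36, adjusted p = 0.00353). With levels this low the CDAHFD change is a rough size only, and it ranged from -1.66 to -0.98 without single libraries. Both disease groups lay apart from their controls. Between diets the difference there was 3.10 ± 0.46 in advanced and 3.92 ± 0.45 in mild livers (adjusted p = 0.000588 and 1.09e-05).

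Me1, the malic enzyme that yields NADPH, was lower in advanced livers of both diets. Its gene sum was 130.4 ± 14.6, 120.3 ± 14.9 and 101 ± 9.14 CPM in control, mild and advanced FPC livers, and 119 ± 6.81, 67.0 ± 5.40 and 79.7 ± 3.89 CPM in control, mild and advanced CDAHFD livers (SD, n = 4, 4 and 3). The log2 change was -0.37 ± 0.09 in advanced FPC and -0.58 ± 0.09 in advanced CDAHFD livers (SE, adjusted p = 0.00148 and 8.21e-06). The advanced FPC call was lost with peaks within 1 kb (-0.29, adjusted p = 0.112). In mild livers the change of Me1 was -0.11 ± 0.09 in FPC (adjusted p = 0.326) and -0.83 ± 0.09 in CDAHFD (adjusted p = 4.72e-08). An intergenic peak 11699 bases before the Me1 start had 9.78, 7.69 and 8.59 CPM in advanced FPC livers, against 17.9, 18.6, 20.2 and 19.2 CPM in controls. It had 6.73, 5.34 and 7.11 CPM in advanced CDAHFD livers, against 19.2, 16.8, 19.5 and 17.5 CPM in controls. Both losses were without overlap (-1.13 ± 0.15, adjusted p = 8.73e-07 in FPC, and -1.50 ± 0.15, adjusted p = 5.19e-09 in CDAHFD). At the Me1 start there was a pair of overlapping peaks. For the one centred 10 bases after the start, the log2 change was 0.03 ± 0.18 in advanced FPC and -0.01 ± 0.17 in advanced CDAHFD livers (adjusted p = 0.903 and 0.98). The one 121 bases before it had 6.84, 11.3 and 7.40 CPM in advanced CDAHFD livers, against 15.5, 15.3, 12.1 and 12.7 CPM in controls, with no overlap (-0.73 ± 0.21, adjusted p = 0.00446), and its change in advanced FPC livers was -0.23 ± 0.20 (adjusted p = 0.323).

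Over all 87 peaks of the 9 genes, 26 were lower and 20 higher in advanced FPC livers, against 28.0% lower and 27.6% higher of all 68827 peaks, which is close to the share of all peaks. In advanced CDAHFD livers 52 were lower and 6 higher, against 28.8% and 26.7%. In mild livers 5 were lower and 19 higher on FPC (13.6% lower and 15.1% higher of all peaks), and 50 were lower and 3 higher on CDAHFD (20.0% lower and 20.7% higher). The difference between diets was called for 17 peaks in advanced livers, all higher in FPC, against 0.690% higher and 0.910% lower of all peaks. In mild livers it was called for 31, again all higher in FPC, against 1.84% higher and 1.63% lower. Of the 17, 10 belong to Scd1, and of the 31, 14. Without advanced FPC replicate 1 the 17 became 11, and without advanced CDAHFD replicate 1 they became 9.

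By distance, 22 of the 87 peaks lie within 1 kb of a start and 65 beyond it. In advanced FPC livers 1 was lower and 6 were higher within 1 kb (median log2 change 0.15), and 25 were lower and 14 higher beyond (median -0.26), against 28.0% lower and 27.6% higher of all peaks at any distance. In advanced CDAHFD livers 11 were lower and 2 higher within 1 kb (median -0.30), and 41 were lower and 4 higher beyond (median -0.90), against 28.8% lower and 26.7% higher of all peaks at any distance. The difference between these classes was not tested, and the 87 peaks include 6 overlapping pairs.

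**Figure D5:**
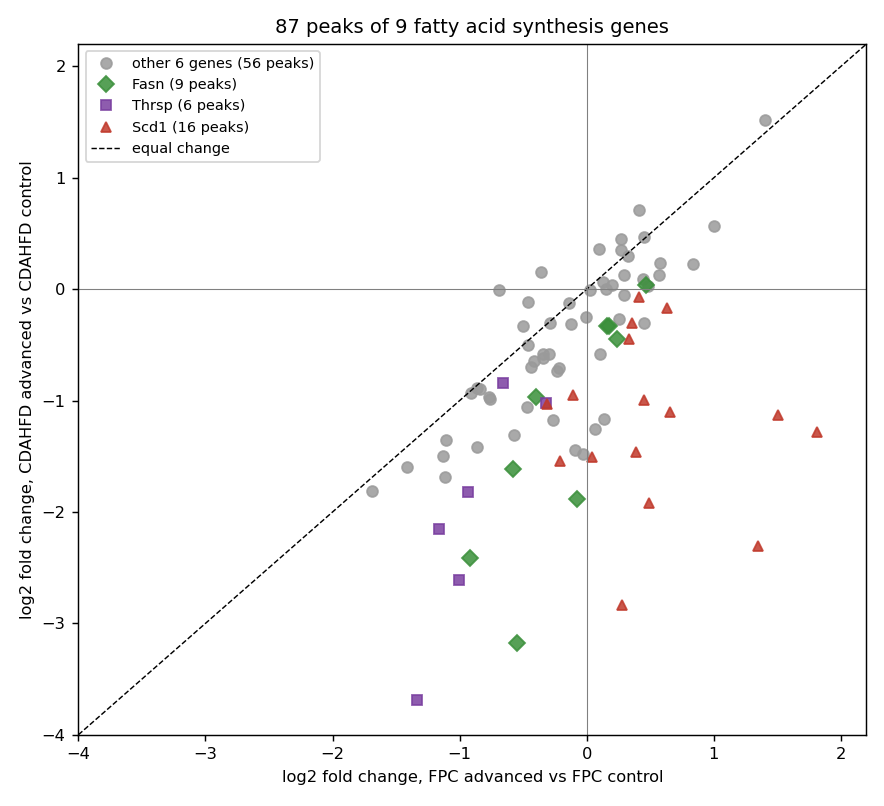
Each of the 87 peaks by its log2 fold change in advanced FPC livers (horizontal) and in advanced CDAHFD livers (vertical), against the control of the same diet. The dashed line marks equal change, and points below it fell further, or rose less, in CDAHFD livers. Of the 87 peaks, 76 lie below that line, among them every peak of Scd1, Fasn, Thrsp, Acaca, Acacb and Me1.

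Elovl6, which lengthens palmitate to stearate, was looked for by transcript. The deposited annotation gives the peaks at its start to Gm35986, whose start lies beside it, while the region type of the same peaks names the Elovl6 transcript. The 14 peaks so named within 50 kb of the Elovl6 start were summed, a choice made after the files were seen. The sum was 183 ± 22.3, 160.3 ± 8.56 and 171 ± 14.7 CPM in control, mild and advanced FPC livers, and 181 ± 9.07, 166 ± 11 and 173 ± 10.3 CPM in control, mild and advanced CDAHFD livers (SD, n = 4, 4 and 3). None of the 9 comparisons called it, and the log2 change was -0.09 ± 0.08 in advanced FPC (SE, adjusted p = 0.335) and -0.07 ± 0.08 in advanced CDAHFD livers (adjusted p = 0.469). The mild FPC change (-0.18 ± 0.07, adjusted p = 0.05) came nearest.

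Of the 14 Elovl6 peaks, 5 were higher and 5 lower in advanced FPC livers, against 27.6% higher and 28.0% lower of all peaks, and 5 were higher and 6 lower in advanced CDAHFD livers, against 26.7% higher and 28.8% lower. A peak 45901 bases after the start, in intron 2, had 12.0, 14.5 and 11.1 CPM in advanced FPC livers, against 1.45, 1.86, 1.34 and 3.29 CPM in controls. It had 12.0, 14.7 and 10.2 CPM in advanced CDAHFD livers, against 1.13, 1.65, 0.950 and 1.70 CPM in controls. Both groups lay above all their controls, with log2 changes of 2.70 ± 0.25 in FPC and 3.19 ± 0.24 in CDAHFD (SE, adjusted p = 1.38e-09 and 1.62e-11). The peak at the start, 53 bases after it, had 6.84, 8.34 and 5.69 CPM in advanced CDAHFD livers, against 15.8, 13.5, 15.2 and 19.2 CPM in controls (-1.20 ± 0.18, adjusted p = 2.27e-06), and the change in advanced FPC livers was -0.07 ± 0.18 (adjusted p = 0.761). Between diets the difference there was 1.13 ± 0.25 (adjusted p = 0.019), and it was lost without advanced FPC replicate 1 or 3 or advanced CDAHFD replicate 3.

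Genes that stand around these in the pathway were counted from 4 lists of 52 genes, of which 51 had a peak: other regulators, carbon and NADPH supply, other elongases and desaturases, and esterification of the product. In advanced FPC livers 24 were lower and 9 higher (median log2 change -0.13), and in advanced CDAHFD livers 27 were lower and 9 higher (median -0.18), against 29.0% lower and 32.4% higher of all genes in FPC and 28.0% lower and 30.2% higher in CDAHFD. In mild livers 11 were lower and 13 higher on FPC, and 17 were lower and 7 higher on CDAHFD (of all genes, 18.9% lower and 21.3% higher on FPC, and 21.0% lower and 23.9% higher on CDAHFD). The difference between diets was called for 2 higher and 3 lower of the 51 in advanced livers, against 1.92% higher and 2.95% lower of all genes, and for 5 higher and none lower in mild livers, against 2.49% and 2.79%. By list, advanced FPC livers had 8 lower and 2 higher of 14 regulators, 7 lower and 1 higher of 12 supply genes, 4 lower and 4 higher of 14 elongation and desaturation genes, and 5 lower and 2 higher of 11 esterification genes. Advanced CDAHFD livers had 7 lower and 2 higher, 9 lower and 1 higher, 3 lower and 5 higher, and 8 lower and 1 higher of the same lists. The elongation and desaturation counts were near the shares of all genes.

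Among regulators, Insig1, which retains SREBP in the endoplasmic reticulum, was lower in advanced FPC (-0.54 ± 0.08, SE, adjusted p = 1.51e-06) and advanced CDAHFD livers (-0.32 ± 0.07, adjusted p = 0.000756). Scap, the escort of SREBP, was also lower (-0.45 in FPC and -0.39 in CDAHFD). Thrb had lower means in advanced livers than in controls (113 against 138 CPM in FPC, and 109 against 147 CPM in CDAHFD). Nr1h2 went the other way, at 45.5 against 27.2 CPM in FPC and 43.5 against 35.9 CPM in CDAHFD. Of the supply genes, Idh1, an NADPH source, was lower (-0.66 in advanced FPC and -0.39 in advanced CDAHFD livers), as was Khk, the fructose kinase (-0.40 and -0.63), and Pgd of the pentose phosphate pathway was higher (0.37 and 0.67). Among elongases, Elovl3 was lower (-1.29 and -1.51) and Elovl7 higher (1.61 and 1.76) in advanced FPC and advanced CDAHFD livers.

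Scd2, a desaturase gene that is a close relative of Scd1, was higher in both diets. It had 86.1, 80.8 and 101 CPM in advanced FPC livers, against 11.5, 6.91, 7.83 and 8.29 CPM in controls (3.37 ± 0.20, SE, adjusted p = 1.75e-12). It had 26.7, 32.2 and 33.8 CPM in advanced CDAHFD livers, against 3.35, 3.16, 6.19 and 7.14 CPM in controls (2.63 ± 0.22, adjusted p = 4.56e-10). Scd2 was thus higher and Scd1 lower in CDAHFD livers.

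Pnpla3, a lipid droplet protein gene known as a target of SREBP-1c and ChREBP, was higher on FPC and lower on CDAHFD. It had 77.4, 77.2 and 79.1 CPM in advanced FPC livers, against 60.7, 57.2, 46.2 and 44.7 CPM in controls, and 47.8, 52.0 and 59.0 CPM in advanced CDAHFD livers, against 67.4, 82.4, 63.7 and 73.2 CPM in controls. Neither pair overlapped. Its log2 change was 0.59 ± 0.10 in FPC and -0.44 ± 0.10 in CDAHFD (SE, adjusted p = 3.6e-05 and 0.000546), and the difference between diets was 1.03 ± 0.14 in advanced and 0.96 ± 0.13 in mild livers (adjusted p = 0.000239 and 0.000115). The controls had a mean of 52.2 CPM in the FPC arm and 71.7 CPM in the CDAHFD arm. Both differences between diets include that gap between the baselines. The other esterification genes named by smallest p had lower means in advanced livers than in controls on both diets. Acsl1 had 470 against 664 CPM in FPC and 481 against 609 CPM in CDAHFD livers. Mogat1 had 92.9 against 166 and 79.5 against 132 CPM, and Agpat2 had 189 against 220 and 172 against 225 CPM.

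Gene sums were also ranked, over the 22 libraries, by how closely their log2 CPM followed each member. The members themselves, and genes within 500 kb of the member, were left out of the ranking. The closest of the other genes were Dync2li1 and Pnpla5 for Scd1 (Pearson r = 0.92 and 0.89) and Fam151a and Mir6419 for Thrsp (0.96 and 0.95). For Fasn they were Tex14 and Sec31b (0.91 for each), and for Acaca Tff2 and A330041J22Rik (0.90 and 0.86). Kcne1 was the closest of these other genes for Me1 and for Srebf1 (0.92 for each) and the second closest for Acly (0.89), after Tex14 (0.90). Psmb9 and Mir7008 were closest for Acacb (0.83 and 0.82) and Vegfa and Rb1 for Mlxipl (0.84 and 0.82). These values describe libraries that share groups and are given with no test.

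Total counts per library, in units of 1000000, were 3.79 to 6.04 in control, 5.02 to 5.96 in mild and 5.97 to 7.14 in advanced FPC libraries, and 5.95 to 8.38 in control, 6.15 to 9.33 in mild and 6.08 to 9.24 in advanced CDAHFD libraries. All 12 hepatocyte markers had peaks, with a summed level of 1749 to 2150 CPM in advanced FPC, against 2556 to 2672 CPM in FPC controls (9 of 12 lower), and 1995 to 2148 CPM in advanced CDAHFD, against 2385 to 2631 CPM in CDAHFD controls (10 of 12 lower). Of 10 cholangiocyte markers, 8 had peaks, with sums of 381 to 495 CPM in advanced FPC, against 205 to 229 CPM in FPC controls (8 of 8 higher), and 321 to 358 CPM in advanced CDAHFD, against 212 to 258 CPM in CDAHFD controls (7 of 8 higher). Macrophage markers, 3 of 10 with peaks, summed to 41.7 to 46.0 CPM in advanced FPC, against 23.5 to 33.2 CPM in FPC controls, and 44.9 to 52.6 CPM in advanced CDAHFD, against 35.6 to 43.9 CPM in CDAHFD controls. Stellate cell markers, 2 of 10 with peaks, summed to 47.3 to 65.6 CPM in advanced FPC, against 26.7 to 43.7 CPM in FPC controls, and 45.0 to 58.0 CPM in advanced CDAHFD, against 37.2 to 49.9 CPM in CDAHFD controls. Endothelial markers, 8 of 10 with peaks, summed to 229 to 235 CPM in advanced FPC, against 258 to 273 CPM in FPC controls (3 lower, 2 higher), and 226 to 268 CPM in advanced CDAHFD, against 289 to 311 CPM in CDAHFD controls (4 lower, 1 higher). Lymphocyte markers, 4 of 10 with peaks, summed to 90.9 to 104 CPM in advanced FPC, against 202 to 214 CPM in FPC controls (3 of 4 lower), and 99.1 to 123 CPM in advanced CDAHFD, against 194 to 225 CPM in CDAHFD controls (3 lower, 1 higher). The defining genes Clec4f, Cd68, Lyz2, Dcn, Col1a2 and Cd3e had no peak. Macrophage markers were called higher for 3 of 3 in advanced FPC and 1 of 3 in advanced CDAHFD, and stellate cell markers for 1 of 2 in each. Of all genes, 29.0% were lower and 32.4% higher in advanced FPC, and 28.0% lower and 30.2% higher in advanced CDAHFD. Fewer hepatocyte nuclei in a library and less open chromatin in each cannot be told apart here. These marker levels moved with the advanced groups of both diets, and some also moved in mild livers. Hepatocyte sums in mild livers were 2092 to 2424 CPM on FPC and 2107 to 2281 CPM on CDAHFD. Endothelial sums there were 218 to 240 and 241 to 258 CPM, and lymphocyte sums 158 to 171 and 153 to 171 CPM. All of these lay below the controls of their own diet. In mild livers cholangiocyte sums were 246 to 267 CPM on FPC, above the controls, and 240 to 271 CPM on CDAHFD, overlapping controls. Macrophage and stellate cell sums overlapped the controls in mild livers. The part of the markers in the members' results was not tested at either stage.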

How the data were processed

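ATAC-seq libraries from 22 mice were analysed from the table of counts per peak that the authors deposited. The build is mm10, and the tools named are HOMER, DESeq2, SAMtools and BWA (0.7.5a-r405), per the submitters' processing notes. Which tool made the counts is not stated there. The deposited values, 47.8% of which are not whole, were handled like expected counts without normalization and rounded to whole numbers for the tests. How the authors came to values that are not whole is not stated. Peak names, distances and region types are those of the deposited annotation.

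Peaks within 50 kb of a start were summed per gene, which took 86.5% of all counts. Peaks and gene sums were each fitted in edgeR 4.0.16 (R 4.3.3) with TMM scaling, all 22 libraries in one quasi-likelihood model of the 6 groups, and Benjamini-Hochberg adjustment over all 68827 peaks or 15686 genes. Every peak and gene passed the low-count filter. The SE is the log2 change over the root of its F statistic, and CPM uses TMM-scaled totals. Per-library depth is given with the marker levels, and replicate correlations of log2 CPM lay between 0.925 and 0.969. The scripts were tested on simulated data.

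The members and all lists were chosen with earlier results of these data known. Named peaks are, per gene, the one nearest to the start, the one with the highest mean CPM, and those with the smallest p in advanced FPC, in advanced CDAHFD and in the difference between diets. Listed genes were named by the smallest p within each list in advanced FPC and advanced CDAHFD livers, and those shown are a choice among them. The description of Elovl6 by transcript and the scaling of gene sums by totals of all peaks were added after the data were seen. Alternatives were DESeq2 1.42.0, limma-voom (limma 3.58.1), other scalings, filters and windows, only the groups compared, and leaving out each library. Each library is a separate mouse, and replicate numbers only name them.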

Additional observations from a re-analysis of the deposited data

Results flagged for a closer look

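In 2 of 40 groups of gene sums one library stood far from the other 3 of its group (by Dixon's test of the gap over the range), and chance alone gives about 1 in 20. Acaca had 78.4 CPM in mild FPC replicate 1, and Thrsp had 130.7 CPM in mild CDAHFD replicate 4.

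The change differed between the diets, by the test of the FPC minus CDAHFD difference. On the log2 scale the difference of the advanced change was 1.13 for Scd1, 0.73 for Acaca and 0.67 for Fasn. The difference of the mild change was 1.67 for Scd1, 1.06 for Acaca, 0.75 for Fasn, 0.72 for Me1 and 0.41 for Srebf1. Diet and time on diet cannot be told apart in these differences.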

How the results depend on the processing

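No called result changed direction under any alternative. Leaving out single libraries kept the 9 gene sums lower in advanced CDAHFD and the 7 lower in mild CDAHFD livers. Counts of gene sums are listed here where they moved by over 1.5 times. Smaller moves within 1 kb, where Acacb has no peak and was not tested, include 7 lower in advanced and 5 in mild CDAHFD livers. There, 4 were higher in either difference between diets. In advanced FPC the count higher was 0 with DESeq2, 0 within 1 kb, 0 within 10 kb, and 0 to 1 without single libraries. For mild FPC they were 1 higher within 10 kb and 1 lower with only the groups compared. For advanced against mild FPC, the count lower was 2 with limma-voom, 2 with totals of all peaks, and 0 to 5 without single libraries. For advanced against mild CDAHFD, the count higher was 1 with only the groups compared, 1 with totals of all peaks, and 0 to 1 without single libraries (1 without mild FPC replicate 1), and the count lower was 4 with only the groups compared and 1 to 3 without single libraries (1 without advanced CDAHFD replicate 1). The difference of the advanced change was called higher for 5 with limma-voom. For 20-week against 7-week controls, 1 was higher within 1 kb and 1 within 10 kb, and the count lower was 0 with only the groups compared, 0 within 10 kb, and 0 to 1 without single libraries.

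With peaks of a mean count of at least 50, peaks lower numbered 16 in advanced FPC, 34 in advanced CDAHFD, 2 in mild FPC and 33 in mild CDAHFD, and 20 had a higher mild difference, since fewer peaks were tested. Without single libraries, peaks numbered 3 to 7 higher in advanced CDAHFD, 2 to 6 lower in mild FPC, 2 to 5 higher in mild CDAHFD, and 9 to 22 with a higher advanced difference. Other moves were not tested for a cause. No paired analysis was possible because the 22 libraries are 22 mice whose replicate numbers are only names. Depth limits low peaks most, such as the Thrsp intron.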
